A study of Mus musculus with 9 samples.

Results

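The genes examined here encode structural proteins of caveolae, the small flask-shaped pits of the plasma membrane that are abundant in endothelial cells. Members were taken by symbol from the deposited count table: Cav1, Cav2, Cav3, Ehd2, Pacsin2 and Pacsin3, 6 of 55487 genes. A caveola is built from caveolins, which insert into the inner leaflet of the membrane as oligomers, and from cavins, which form a coat around the bulb. Pacsin proteins bend the membrane through a curved F-BAR domain, and Ehd2, an ATPase, assembles as a ring at the neck and holds the pit at the cell surface. In endothelium, caveolae are known for transcytosis, for buffering membrane tension and for restraining nitric oxide synthase.

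Poly-A RNA was sequenced from MCEC, a line of cardiac endothelial cells of the mouse, in 3 groups of 3 libraries: unmodified cells (WT), cells with knockdown of Zbtb46 (KD) and cells with enforced overexpression of Zbtb46 (OE). Zbtb46 is a zinc finger transcription factor with a BTB domain. The labels give no means of knockdown or overexpression and do not say whether replicates were separate cultures, so p values measure the spread between these libraries, which may be technical. A control-vector group was not analysed here, and whether KD or OE cells were 1 clone or a pool is not given in the sources used here.

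Total counts per library ran from 39491828 to 55745849, and ribosomal RNA features took 7.44% to 18.2% of them. Levels are given as CPM, a gene's counts relative to the TMM-scaled library total, and a gene was called at an adjusted p under 0.05 in edgeR's quasi-likelihood test over the 16955 genes tested. Mean CPM of Zbtb46 itself was 13.7 ± 0.623 (SD, n = 3 here and below) for WT, 11.2 ± 0.537 for KD and 191 ± 2.67 for OE; in KD its mRNA decreased by 17.8%. Against WT, 21.3% of the tested genes were called in KD and 36.4% in OE, and 41.5% were called between OE and KD. Higher genes made up 51.4% of the calls in KD and 46.6% in OE with TMM, and 35.8% and 31.6% with library totals alone. Between OE and KD they made up 46.8% with TMM and 57.6% with upper-quartile factors.

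The labelled cell type was checked against its markers. Of 12 endothelial markers, 6 had enough counts to be tested. Eng, a TGF-beta co-receptor of endothelium, stood highest at 124 ± 6.78 CPM (SD, n = 3) in WT. Erg had 0 counts in every library, and Pecam1, Cdh5, Tie1, Emcn and Vwf had at most 10 counts in any library. These defining markers were therefore at or near 0 in all 3 groups. The summed endothelial markers ranged from 147 to 160 CPM in WT, 124 to 131 in KD and 107 to 118 in OE. Most of this sum was Eng, with means of 108 ± 3.09 CPM in KD and 84.9 ± 3.04 in OE. Flt1, a VEGF receptor, did not follow it in OE, with means of 17.2 ± 0.196 CPM (WT), 12.1 ± 0.979 (KD) and 21.9 ± 1.58 (OE). The remaining tested markers had lower means in KD and OE than in WT. Egfl7 averaged 5.185 ± 0.459 CPM (WT), 2.99 ± 0.36 (KD) and 2.49 ± 0.521 (OE). Kdr averaged 2.64 ± 0.252, 1.40 ± 0.254 and 1.77 ± 0.202, and Tek 1.835 ± 0.114, 1.41 ± 0.0979 and 0.46 ± 0.12. Esam averaged 0.612 ± 0.407, 0.558 ± 0.193 and 0.47 ± 0.19, a difference within its spread.

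Caveolae genes were expressed at very different levels. Per length of transcript (TPM, which divides counts by exon length), Pacsin2 had 146 ± 34.8 TPM (SD, n = 3) in WT, Ehd2 86.7 ± 15.8, Cav1 76.5 ± 14.3, Cav2 21.3 ± 4.39 and Pacsin3 11.2 ± 2.91. WT replicate 1 was the lowest WT library in TPM for all 5 of these genes. The WT ranges of Ehd2 and Cav1 overlapped, but within each WT library Ehd2 stood above Cav1 over all exons. The values were 68.6 against 60.4, 93.6 against 87.6 and 97.8 against 81.6 TPM. The other neighbours in this order were separate in every WT library over all exons. By the longest transcript in place of all exons, Cav1 stood above Ehd2 in WT, at 79.1 against 71.4 TPM, so their order depends on the length used. By that length Pacsin3 had 20.1 TPM in WT and lay close to Cav2 at 21.5. In KD Cav1 stood above Ehd2 by either length, with 99.99 ± 4.57 TPM for Cav1 and 85.3 ± 4.63 for Ehd2 over all exons. In WT, Pacsin2 lay above 95.1% of the tested genes per length, Cav1 above 89.4% and Pacsin3 above 52.5%. Cav3, the caveolin of striated muscle, was not detectable. It had 0 counts in 8 libraries and 1 count in KD replicate 2, and a count of 0 allows at most 3 counts, or 0.0504 to 0.0791 CPM depending on the library; such limits cover counting error only. Markers of striated muscle were likewise low, with Myh6 at 0 in every library and summed levels of 3.14 to 4.21 CPM in WT, 2.84 to 3.36 in KD and 3.37 to 4.39 in OE over 10 genes.

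Across the groups, Cav1 and Pacsin2 were called in the direction opposite to Zbtb46 in both KD and OE. The other tested members were so called in 1 of these at most. The sizes did not follow Zbtb46, which had log2 fold changes of -0.28 in KD and 3.81 in OE, beside 0.48 and -0.50 for Cav1. Whether differences between these lines stem from Zbtb46 was not tested. Of the 5 members tested, 3 rose in KD (Cav1, Cav2 and Pacsin2) and 0 fell, where 11.0% of all tested genes were higher and 10.4% lower. In OE, 3 fell (Cav1, Ehd2 and Pacsin2) and 0 rose, where 19.5% of all tested genes were lower and 17.0% higher. Between OE and KD 4 were lower in OE and 1, Pacsin3, was higher, beside 22.1% lower and 19.4% higher among all tested genes. The median log2 fold change of the 5 members was 0.26 in KD and -0.23 in OE against WT, and -0.49 between OE and KD. Over all tested genes these medians were -0.0022, 0.0020 and 0.011. The libraries of the compared groups did not overlap for 4 of the 5 members when KD was set against WT, 4 when OE was, and 5 between OE and KD, beside 34.7%, 45.1% and 55.4% of all tested genes. Each tested member had at least 616 counts in every library, so none passed the filter on low counts through a single group. The KD and OE comparisons share the WT libraries. In bulk RNA, a lower share of cells of a kind and less RNA per cell cannot be told apart.

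**Figure D1:**
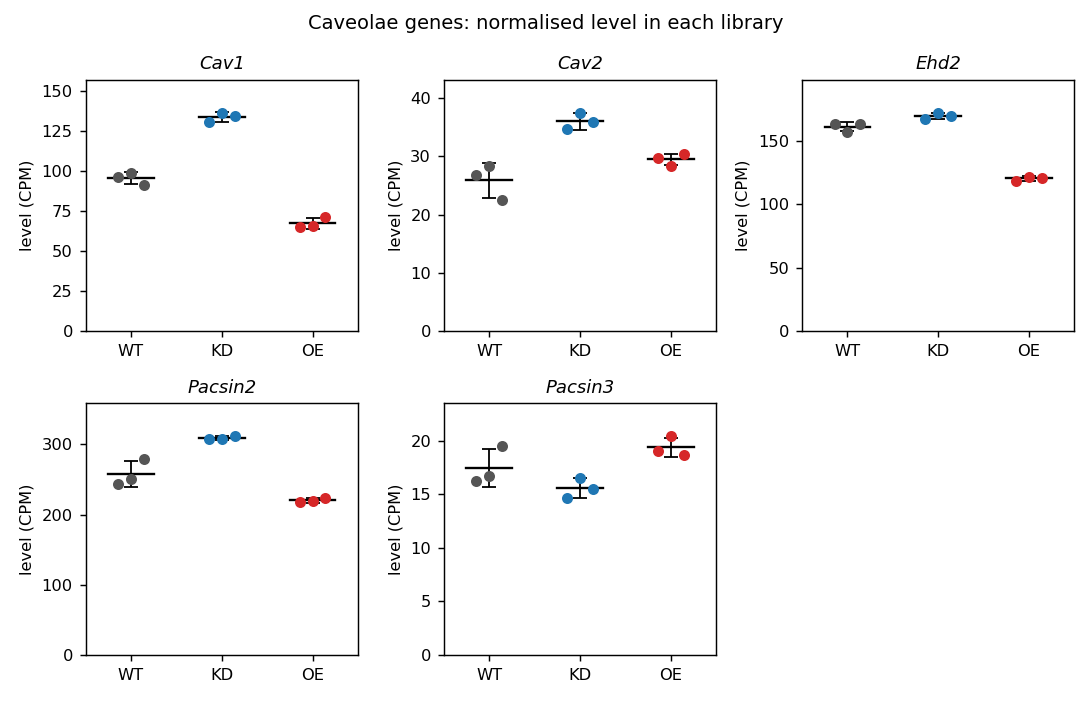
Normalised level (CPM, vertical axis from 0) of the 5 tested caveolae genes in each library of WT, KD and OE; points are libraries, horizontal bars the mean and error bars the SD of 3 libraries. Cav1 and Pacsin2 are highest in all KD libraries and lowest in all OE libraries, Ehd2 is low in OE alone, and Pacsin3 is separate only between OE and KD.

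Cav1 encodes the caveolin without which caveolae do not form outside striated muscle. Its levels in WT were 96.5, 98.8 and 91.5 CPM, in KD 130.5, 136 and 134 CPM, and in OE 65.2, 65.6 and 71.4 CPM. The 3 groups did not overlap, with every KD library above WT and every OE library below it. Cav1 rose 1.40-fold in KD (log2 fold change 0.48, SE 0.0375, edgeR adjusted p 2.58e-07). In OE it fell by 29.5% (log2 fold change -0.50, SE 0.0533, edgeR adjusted p 4.04e-08). Between OE and KD the level differed by close to a factor of 2, at -0.99 on the log2 scale (SE 0.0462, edgeR adjusted p 7.11e-13). Larger changes were found for 15.1% of the tested genes in KD, 22.3% in OE and 9.74% between OE and KD.

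Cav2 encodes the caveolin that joins Cav1 in mixed oligomers and depends on Cav1 to leave the Golgi. It measured 26.7, 28.4 and 22.5 CPM in WT, 34.6, 37.5 and 35.9 CPM in KD, and 29.7, 28.4 and 30.3 CPM in OE. All KD libraries lay above the others, while the lowest OE library lay just above the highest WT library. Cav2 rose 1.39-fold in KD (log2 fold change 0.47, SE 0.106, edgeR adjusted p 7.80e-05). In OE the log2 fold change against WT was 0.19 (SE 0.104), with an edgeR adjusted p of 0.0556 and a limma-voom 95% interval from 0.023 to 0.35. This interval holds no fall, in contrast to Cav1, whose interval in OE ran from -0.61 to -0.40. Of 19 alternative fits, 4 called Cav2 higher in OE, with adjusted p values over the 19 from 0.00709 to 0.326; 1 of the 4 was the fit without WT replicate 2, at a log2 fold change of 0.26. Without WT replicate 3 it was 0.088, with the highest of these adjusted p values. Against KD, Cav2 in OE decreased by 18.1% (log2 fold change -0.29, SE 0.0436, edgeR adjusted p 0.00309).

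The ratio of Cav1 to Cav2 counts within a library does not depend on scaling. There were 3.61, 3.48 and 4.07 Cav1 counts per Cav2 count in WT, 3.77, 3.63 and 3.74 in KD, and 2.19, 2.31 and 2.36 in OE. WT and KD overlapped (fold 1.001, exact two-sided permutation p of 1.0). The ratio in OE was 0.616 of that in WT and 0.615 of that in KD, with no overlap, and the exact two-sided permutation p was 0.1 in both cases, the smallest that 3 libraries against 3 can give.

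**Figure D2:**
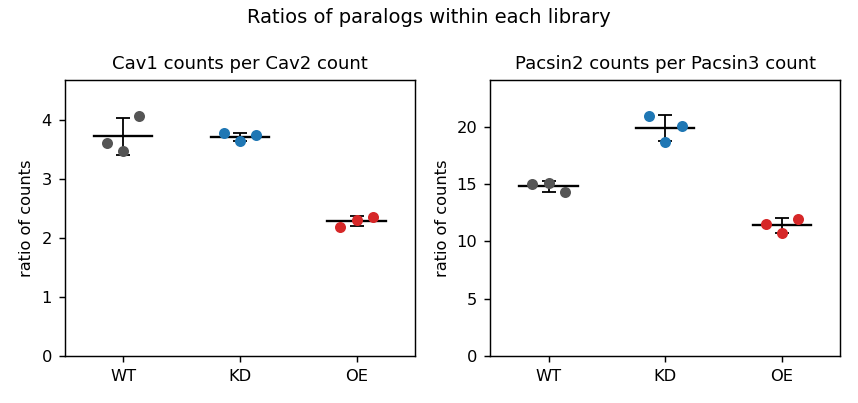
Counts of Cav1 per count of Cav2 (left) and of Pacsin2 per count of Pacsin3 (right) in each library; points are libraries, bars the mean and error bars the SD of 3 libraries, and axes start at 0. The Cav1 to Cav2 ratio is alike in WT and KD and lower in all OE libraries, and the Pacsin2 to Pacsin3 ratio is separate in all 3 groups.

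Cav2 and Cav1 are neighbours on the plus strand of chromosome 6 of GRCm38 (GENCODE M21). Cav2 (ENSMUSG00000000058) lies at chr6:17281185-17289115 and Cav1 (ENSMUSG00000007655) at chr6:17306335-17341452, with a gap of 17219 bases. The nearest tested genes outside the pair are Tes, which encodes a focal adhesion protein, and Met, the receptor of hepatocyte growth factor. Tes had log2 fold changes of 0.037 in KD and 0.24 in OE, and Met 0.13 and -0.24; both OE values were called, with edgeR adjusted p values of 0.000738 for Tes and 0.000407 for Met. Of the 18 tested genes with a start within 3 Mb of that of Cav1, the pair included, 6 were called higher and 1 lower in KD, and 2 higher and 5 lower in OE, beside 21.3% and 36.4% of all tested genes called in either direction. Their median log2 fold change was 0.195 in KD and -0.056 in OE.

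**Figure D3:**
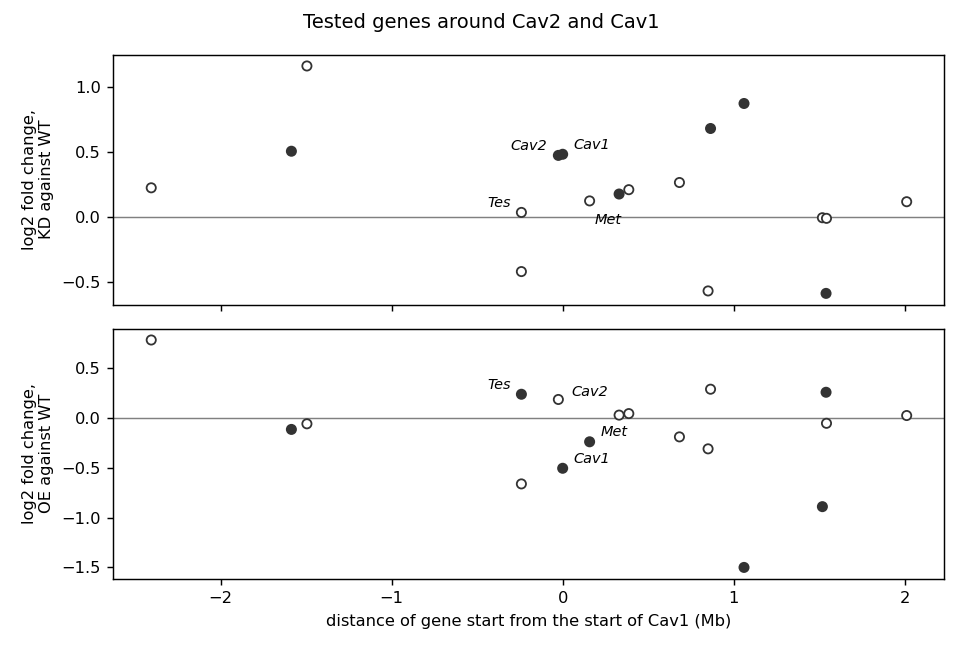
Log2 fold change against WT (vertical axes; KD above, OE below) of the 18 tested genes within 3 Mb of Cav1, by the distance of the gene start from that of Cav1 in Mb; filled points passed the threshold and open points did not. Cav2 and Cav1 lie together in KD at 0.47 and 0.48 and apart in OE at 0.19 and -0.50.

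Because these neighbours both rose in KD while Cav1 alone was called in OE, the 250 bases before the most upstream RefSeq start of each are shown, 5′ to 3′ on the plus strand of GRCm38.p6, at chr6:17306085-17306334 for Cav1 and chr6:17280935-17281184 for Cav2. Capitals mark matches on either strand to 5 motifs that do not contain one another. The GC box, bound by Sp1, was searched as GGGCGG and the motif of the factor NF-Y as CCAAT. The TATA box was searched as TATAAA, the half-site of CREB and ATF factors as TGACGT, and the forkhead core as TGTTTAC.
Cav1: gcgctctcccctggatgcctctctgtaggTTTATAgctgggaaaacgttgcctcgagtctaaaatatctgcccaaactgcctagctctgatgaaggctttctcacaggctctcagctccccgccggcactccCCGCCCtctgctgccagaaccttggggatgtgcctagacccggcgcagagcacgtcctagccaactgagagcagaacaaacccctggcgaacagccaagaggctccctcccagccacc
Cav2: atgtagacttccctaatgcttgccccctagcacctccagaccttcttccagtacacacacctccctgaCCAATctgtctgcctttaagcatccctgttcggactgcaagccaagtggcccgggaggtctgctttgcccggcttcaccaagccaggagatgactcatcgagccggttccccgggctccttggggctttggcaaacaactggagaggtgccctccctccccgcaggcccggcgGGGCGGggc
The Cav1 window held 1 GC box, with its first base 118 bases before the start, and 1 TATAAA match, at 221 bases. The Cav2 window held 1 CCAAT match at 182 bases and 1 GC box at 9 bases. Neither window held TGACGT or TGTTTAC. Among one window per gene for 27025 genes, 33.0% held a GC box, 34.5% CCAAT, 13.0% TATAAA, 6.52% TGACGT and 3.06% TGTTTAC. GC content was 59.6% for Cav1 and 62.0% for Cav2, against a median of 52.0%. These matches describe letters and do not show binding.

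Ehd2 (ENSMUSG00000074364, chr7:15946958-15967567, minus strand) encodes the ATPase at the caveolar neck. It measured 163, 157 and 163 CPM in WT, 167, 172 and 169 CPM in KD, and 118, 122 and 121 CPM in OE. The OE libraries lay far below the rest, while the KD libraries lay only slightly above WT. Ehd2 fell by 25.3% in OE (log2 fold change -0.42, SE 0.0221, edgeR adjusted p 3.50e-08). In KD the log2 fold change was 0.074 (SE 0.0220, edgeR adjusted p 0.213), with a limma-voom 95% interval from -0.0054 to 0.15, and 0 of 19 alternative fits called it. Between OE and KD the log2 fold change was -0.49 (SE 0.0174, edgeR adjusted p 1.85e-09). Ehd2 lies between Nop53, a ribosome biogenesis factor, and Bicra, a subunit of a chromatin remodelling complex, whose log2 fold changes in OE were -0.019 and 0.031, neither of them called.

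Cav1 was also set against Ehd2 within each library. The ratio of their counts was 0.592, 0.629 and 0.561 in WT, 0.781, 0.793 and 0.792 in KD, and 0.551, 0.540 and 0.591 in OE. KD was separate from WT at 1.33-fold (exact two-sided permutation p of 0.1, the smallest possible), and OE overlapped WT at 0.944 (exact permutation p of 0.2).

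Pacsin2 (ENSMUSG00000016664, chr15:83375607-83464606, minus strand) encodes the widely expressed F-BAR protein of caveolae. Its levels were 244, 251 and 279 CPM in WT, 307, 308 and 312 CPM in KD, and 218, 219 and 224 CPM in OE. The groups did not overlap, and WT was the most spread of them. Pacsin2 rose 1.20-fold in KD (log2 fold change 0.26, SE 0.0585, edgeR adjusted p 0.000254), and fell by 14.6% in OE (-0.23, SE 0.0593, edgeR adjusted p 0.000413). Between OE and KD the log2 fold change was -0.49 (SE 0.0136, edgeR adjusted p 1.71e-08). Its tested neighbours Arfgap3, a GTPase activator of the Golgi, and Ttll1, a tubulin glutamylase, had log2 fold changes of 0.11 and -0.19 in KD and 0.21 and 0.15 in OE. Arfgap3 in OE was the only one of these 4 values called (edgeR adjusted p 0.0135). As Pacsin2 moved the same way as Cav1 in both comparisons, the 250 bases before its most upstream RefSeq start (minus strand, chr15:83464607-83464856, GRCm38.p6) are shown with the same marking.
Pacsin2: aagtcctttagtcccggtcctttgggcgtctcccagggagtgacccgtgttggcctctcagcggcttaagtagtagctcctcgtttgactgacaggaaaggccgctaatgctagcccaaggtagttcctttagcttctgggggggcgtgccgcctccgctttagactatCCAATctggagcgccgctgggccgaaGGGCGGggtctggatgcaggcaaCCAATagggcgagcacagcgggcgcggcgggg
The window held 1 GC box, at 55 bases, and 2 CCAAT matches, at 81 and 32 bases before the start. None of the other 3 motifs matched, and the GC content was 62.0%. Cav1, Cav2 and Pacsin2 thus shared only the GC box among the motifs searched, which 33.0% of all windows hold. The windows of Ehd2 and Pacsin3, which were not called in KD, hold it too. Only the most upstream start was scanned, of 2 listed for Cav1 and 3 for Pacsin2.

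Pacsin3 (ENSMUSG00000027257, chr2:91255954-91264679, plus strand) encodes the pacsin best known from muscle. Its exons overlap Gm17281 on the opposite strand over 42 bases, and the use of strand in counting is not given in the sources used here. It measured 16.2, 16.7 and 19.5 CPM in WT, 14.6, 16.5 and 15.5 CPM in KD, and 18.99, 20.4 and 18.7 CPM in OE. WT overlapped both other groups, while OE and KD were separate. Pacsin3 was 1.25-fold higher in OE than in KD (log2 fold change 0.32, SE 0.0632, edgeR adjusted p 0.00369). Against WT it was not called in KD (log2 fold change -0.17, SE 0.0963, edgeR adjusted p 0.167, limma-voom 95% interval -0.35 to 0.0088). Without WT replicate 3 the value in KD was -0.083, at one end of a range from -0.22 to -0.083 over fits leaving out 1 library. In OE it was not called either (0.15, SE 0.0912, edgeR adjusted p 0.175, interval -0.015 to 0.32), except without WT replicate 3, where the log2 fold change was 0.23. Adjusted p values over the 19 alternative fits ran from 0.0316 to 0.564 in OE. The neighbours Ddb2, a DNA damage sensor, and Arfgap2, a GTPase activator of the Golgi, were called in none of the 3 comparisons.

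The balance of the 2 pacsins was separate in every group. There were 15.0, 15.1 and 14.3 Pacsin2 counts per Pacsin3 count in WT, 20.98, 18.7 and 20.1 in KD, and 11.5, 10.7 and 11.98 in OE. The ratio in KD was 1.34 times and that in OE 0.77 times that of WT, with all 3 groups separate and an exact two-sided permutation p of 0.1 in each comparison, the smallest possible.

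The cavins, which coat the caveolar bulb, were examined as the nearest partners of these genes. All 3 tested cavins rose in KD and fell in OE, where 11.0% of tested genes were higher in KD and 19.5% lower in OE; the list's median log2 fold change was 0.31 and -0.77. Cavin1, needed for caveolae to form, had 983, 929 and 944 CPM in WT, 1044, 1088 and 1066 in KD, and 704, 727 and 738 in OE. It rose by 12.0% in KD (log2 fold change 0.16, SE 0.0302, edgeR adjusted p 0.00337) and fell by 24.0% in OE (-0.40, SE 0.0318, edgeR adjusted p 4.29e-08). Cavin2, which helps to bend the caveolar membrane, had 294, 296 and 274 CPM in WT, 350.0, 369 and 359 in KD, and 135, 141 and 140 in OE. Its fall in OE was the largest among caveolins, tested cavins, Ehd2 and pacsins, at a log2 fold change of -1.06 (SE 0.0397, edgeR adjusted p 5.89e-14). Its rise in KD was 0.32 (SE 0.0413, edgeR adjusted p 1.10e-05). Its neighbour Tmeff2, 101855 bases away, was called alike, at -1.08 in OE (edgeR adjusted p 1.46e-09) and 0.22 in KD (0.0487). Nabp1, on the other side, had -0.022 and 0.44, neither called. Beside Cavin1, Stat3 and Atp6v0a1 were both called lower in OE, at -0.28 (edgeR adjusted p 5.55e-06) and -0.305 (1.67e-05). Neither was called in KD. The part of neighbours in the changes of cavins was not tested.

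Cavin3, a cavin also known as a protein kinase C substrate, had 15.3, 13.9 and 13.3 CPM in WT, 18.9, 18.5 and 15.3 in KD, and 8.74, 8.12 and 7.98 in OE. It rose in KD by a log2 fold change of 0.31 (SE 0.112, edgeR adjusted p 0.0178) and in OE it fell by 41.4% (-0.77, SE 0.0704, edgeR adjusted p 1.75e-06). Exons of Cavin3 overlap Gm45667 on the opposite strand over 374 bases. Of its neighbours, Smpd1 was called lower in OE (log2 fold change -0.29, edgeR adjusted p 0.000412) and Fam160a2 was not called (0.020). Neither was called in KD. With library totals in place of TMM, Cavin1 (adjusted p 0.125) and Cavin3 (0.0659) were no longer called in KD in edgeR's test, while Cavin2 (0.00174) was; the directions were the same. The call of Cavin3 in KD was also lost when WT replicate 3 or either of the first 2 KD replicates was left out, and adjusted p values over its 19 alternatives, which include DESeq2 and limma-voom, ran from 0.00636 to 0.108. Cavin4, the muscle cavin, had 3 to 14 counts per library and was not tested. Within a library, Cav1 counts per Cavin1 count were 0.097 to 0.106 in WT, 0.125 to 0.126 in KD and 0.0903 to 0.0967 in OE. Those per Cavin1 count of Cavin2 were 0.291 to 0.319, 0.335 to 0.339 and 0.189 to 0.193. In both ratios the 3 groups were separate, with exact two-sided permutation p values of 0.1, the smallest possible.

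**Figure D4:**
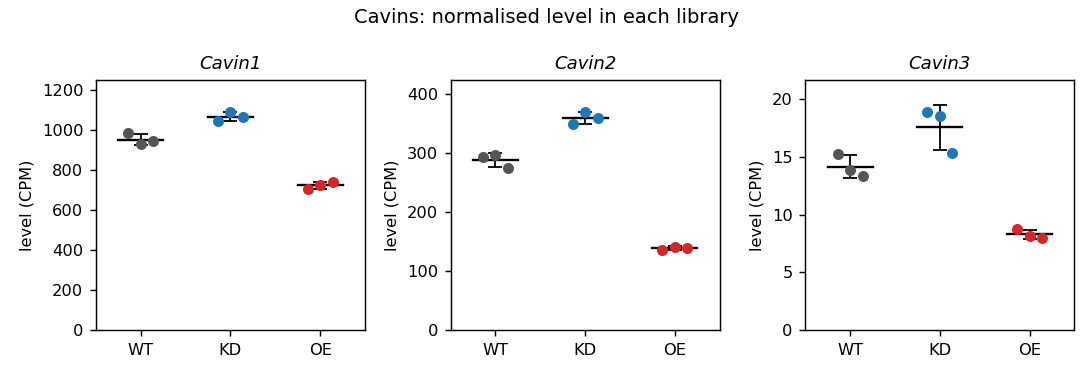
Normalised level (CPM, vertical axis from 0) of Cavin1, Cavin2 and Cavin3 in each library of WT, KD and OE; points are libraries, bars the mean and error bars the SD of 3 libraries. For each cavin all KD libraries lie above WT and all OE libraries below it. For Cavin3 the lowest KD library lies only just above the highest WT library, at 15.32 against 15.27 CPM. Among all tested genes, 34.7% did not overlap between KD and WT and 45.1% between OE and WT.

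Relatives of these proteins and other endocytic genes did not share a direction. Among 6 tested EHD, pacsin and dynamin relatives, 1 rose and 1 fell in KD, and 1 rose and 2 fell in OE, with medians of 0.0083 and -0.030, where all tested genes had 11.0% higher and 10.4% lower in KD and 17.0% and 19.5% in OE. The 2 calls in KD became 4 without WT replicate 3, and 1 without WT replicate 1 or either of the first 2 KD replicates or with library totals alone. Ehd4 moved as Cav1 did, with log2 fold changes of 0.17 in KD (edgeR adjusted p 0.0133) and -0.22 in OE (0.00100), while Ehd1 and Ehd3 were not called in any comparison. Dnm1, the neuronal dynamin, averaged 16.6 ± 0.419 CPM (WT), 11.8 ± 1.53 (KD) and 20.2 ± 2.13 (OE); it fell in KD (-0.49, SE 0.111, edgeR adjusted p 0.000801) and rose in OE (0.29, SE 0.0931, edgeR adjusted p 0.0196). Dnm2, the dynamin that pinches off caveolae and clathrin pits, fell in OE from 160 ± 10.7 to 115 ± 2.73 CPM (-0.47, SE 0.0584, edgeR adjusted p 6.17e-08). The 20 Mb window of chromosome 9 that holds Dnm2 shifted as a whole in OE, with a median of -0.35 on the log2 scale, and Dnm2 stood at -0.13 relative to that median.

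A list of 17 genes took in residents of caveolae, proteins that act on them and the flotillins of neighbouring microdomains; 15 were tested: 3 rose and 5 fell in KD, and 4 rose and 5 fell in OE, with medians of 0.044 and 0.070, beside 21.3% of all tested genes called in KD and 36.4% in OE. Trpv4, a calcium channel of endothelial caveolae, averaged 3.07 ± 0.497 CPM (WT), 0.816 ± 0.0331 (KD) and 4.44 ± 0.384 (OE). In KD it fell by 73.3% (log2 fold change -1.91, SE 0.134, edgeR adjusted p 3.80e-07) and rose in OE (0.54, SE 0.149, edgeR adjusted p 0.0133), the opposite of Cav1. Flot1, a flotillin that scaffolds membrane microdomains of its own, rose in KD from 118 ± 3.89 to 139.5 ± 2.76 CPM (0.25, SE 0.0323, edgeR adjusted p 0.000193). In OE it fell to 90.7 ± 0.458 CPM (-0.38, SE 0.0281, edgeR adjusted p 4.11e-07). Plvap, which forms the diaphragms of endothelial caveolae, had at most 10 counts in any library and was not tested, and neither was Cd36, a fatty acid receptor, with at most 4. Nos3, the endothelial nitric oxide synthase, stood at 0.482 ± 0.210 CPM in WT and was not called in any comparison.

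The clathrin coat, the other main route of endocytosis, had 6 genes higher and 2 lower in KD and 4 higher and 7 lower in OE among 17 tested, with medians of 0.050 and -0.094, beside the same 21.3% and 36.4%. The 8 calls in KD became 5 without WT replicate 1 and 3 with library totals alone. Fcho1, which starts clathrin pits, fell in both KD (log2 fold change -0.94, SE 0.0421, edgeR adjusted p 3.38e-07) and OE (-0.61, SE 0.0618, edgeR adjusted p 2.28e-05). Eps15, an endocytic adaptor, rose in OE from 56.9 ± 4.44 to 86.6 ± 3.49 CPM (0.61, SE 0.0738, edgeR adjusted p 3.56e-08), in a window of chromosome 4 whose median was 0.36; relative to that median Eps15 stood at 0.25. Cltb, a clathrin light chain, rose in KD (0.24, SE 0.0326, edgeR adjusted p 0.00235) and fell in OE (-0.54, SE 0.0534, edgeR adjusted p 9.19e-08). Between OE and KD, 13 of the 17 clathrin genes were called, 4 higher and 9 lower, where 41.5% of all tested genes were called.

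**Figure D5:**
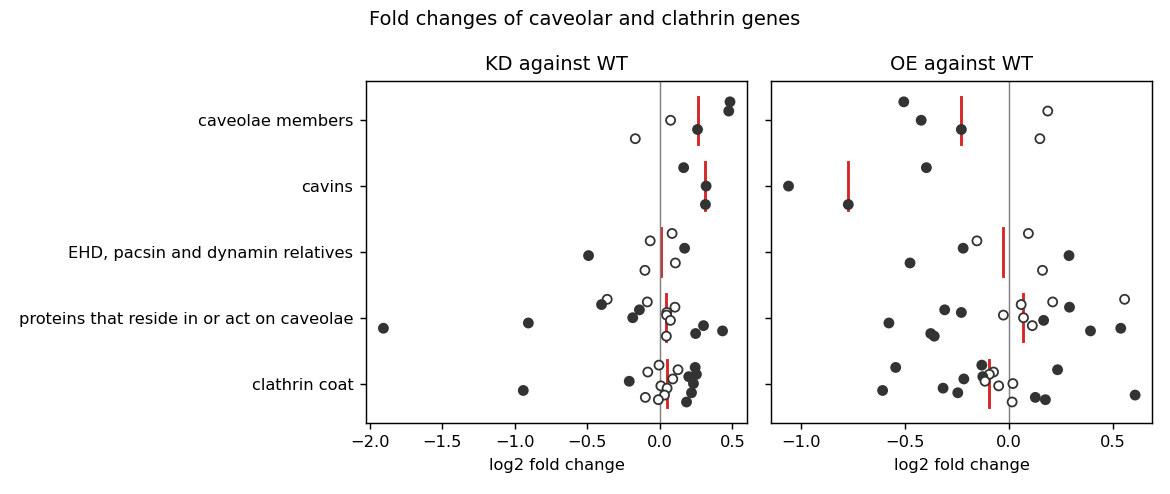
Log2 fold change in KD (left) and OE (right) against WT of each tested gene in 5 lists, 1 list per row; filled points passed the threshold, open points did not, and the red line is the list's median. The tested cavins all lie right of 0 in KD and left of 0 in OE, while the 3 lower rows spread to both sides.

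Markers of other cell types were set beside these changes. The 5 smooth muscle markers were all tested and none was at 0. Their summed level was 157 to 167 CPM in WT, 180.0 to 181 in KD and 84.7 to 89.0 in OE, but nearly all of it was 1 gene, Smtn, a smoothelin, with means of 151 ± 4.64 CPM (WT), 176 ± 0.164 (KD) and 83.9 ± 2.45 (OE). Acta2, smooth muscle actin, was lower in KD as well as OE, with means of 7.74 ± 1.01 CPM (WT), 2.80 ± 0.0386 (KD) and 1.76 ± 0.176 (OE). Myh11, Cnn1 and Tagln averaged below 0.8 CPM. Of 5 fibroblast markers 4 were tested. The sums were 5110 to 5680 CPM in WT, 4850 to 4910 in KD and 4040 to 4130 in OE, nearly all of it Col1a1. Dcn was alike in WT and KD and far lower in OE, with means of 98.0 ± 6.37, 97.8 ± 2.92 and 36.7 ± 0.738 CPM. Pdgfra averaged 17.1 ± 1.56 CPM (WT), 14.6 ± 1.42 (KD) and 13.4 ± 0.653 (OE). Col1a2 stood far below Col1a1, at 0.611 ± 0.0993, 0.506 ± 0.0804 and 0.227 ± 0.05 CPM. Lum had at most 2 counts in any library. Of 4 adipocyte markers, Adipoq was at 0 in every library and only Fabp4 was tested, with sums from 0.101 to 0.800 CPM over the 3 groups. Of 4 leukocyte markers only Cd68 was tested, with sums of 3.64 to 3.96 CPM in WT, 4.73 to 5.01 in KD and 2.80 to 4.18 in OE. The part of these other markers in the changes of caveolae genes was not tested.

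The genes whose log2 CPM followed each member most closely over the 9 libraries were ranked by Pearson correlation among 9704 other genes of at least 5 CPM. The libraries form 3 groups, so these values mostly compare group means, and they carry no test. For Cav1 they were Stt3b, a catalytic subunit of the oligosaccharyltransferase (0.999), Zhx2, a homeobox repressor (0.998), and Timp2, an inhibitor of metalloproteinases (0.996). Stt3b had log2 fold changes of 0.40 in KD and -0.41 in OE, and Timp2 of 0.31 and -0.39. For Cav2 they were Magt1, named as a magnesium transporter (0.995), Ppp1r2, a phosphatase inhibitor (0.993), and Map3k20, a stress kinase (0.986). Map3k20 had 0.47 in KD and 0.17 in OE, as Cav2 had 0.47 and 0.19. For Ehd2 they were Upk3b (0.998), Nkain4 (0.998) and Aprt (0.997), the last in a chromosome 8 window whose median was -0.44 in OE. Upk3b averaged 1635 ± 56.6 CPM in WT, 1758 ± 28.3 in KD and 1106 ± 13.2 in OE. In each group it stood far above Eng, the highest of the endothelial markers. The closest genes were Kctd10 (0.995), Sap18 (0.990) and Wdr81 (0.988) for Pacsin2, and Sumo2 (0.980), Rpp25l (0.970) and Ap5b1 (0.957) for Pacsin3.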

How the data were processed

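Poly-A RNA-seq counts of 9 MCEC libraries were analysed. The authors deposited whole-number counts per Ensembl gene, not normalised, judged from the values; the build is GRCm38 (mm10) per the submitters' processing notes, and aligner, counter, strand setting and annotation release are not given in the sources used here. The deposited table also lists the number of annotated transcripts per gene, used in no test. Of its 55774 rows, 168 genes with repeated rows of identical counts were counted once; 0 rows lacked a gene and 0 sample columns were unmapped. Positions and exon lengths came from GENCODE M21 (GRCm38), matching 55227 of the 55487 genes, and promoters from RefSeq (GRCm38.p6), which held all 6 members.

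Genes kept by filterByExpr (16955) were scaled with TMM and fitted in 1 quasi-likelihood model with group as the only term and robust dispersions (edgeR 4.0.16, R 4.3.3), with Benjamini-Hochberg adjustment. The procedure was also run on simulated counts with equal noise in every group. As noise here was unequal between groups, that run does not vouch for the calls. SEs come from SDs of log2 CPM (prior count 2), intervals from limma-voom (limma 3.58.1), and TPM from union exon lengths without ribosomal RNA features, the latter a choice made after values were seen. Python 3.11.15, scipy 1.17.1 and matplotlib 3.10.9 were used. Alternatives were other scalings, filters, DESeq2 1.42.0, limma-voom, fits of 2 groups, a replicate block, each library left out, ribosomal features removed, window medians subtracted and longest transcripts.

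Members and lists were chosen with earlier results of these data known. Named genes are the 6 members, the 4 cavins, the gene with the smallest p per other list and comparison, the 3 genes most like each tested member, and nearest tested neighbours with a gene symbol. Ehd1, Ehd3, Ehd4, Nos3, Plvap, Cd36 and single markers lie outside that rule and were picked with their values in view. Replicates differed by more than counting noise, and most in WT. The median chi-square was 8.20 to 11.4 times that of sampling in WT, 2.98 to 3.87 in KD and 3.0 to 5.49 in OE. The fit shares 1 dispersion per gene over the 3 groups. Its p values against WT may therefore be too small, and those between OE and KD too large.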

Additional observations from a re-analysis of the deposited data

How the results depend on the processing

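Over the 15 member comparisons, 133 results with 1 library left out and 147 with other alternatives that have a test kept direction and side of the threshold; 2 and 3 passed the threshold anew, and 0 reversed. These were Cav2 in OE against WT, called with DESeq2 size factors (0.19), upper-quartile factors (0.22) and the DESeq2 Wald test (0.19), and, without WT replicate 2, at 0.26 (0.088 to 0.26 over fits leaving out 1 library), and Pacsin3 in OE against WT without WT replicate 3 (0.10 to 0.23 over such fits). With 20 Mb window medians subtracted, Cav1 in KD was 0.39, Ehd2 in KD 0.14, and between OE and KD Cav2 was -0.21, Ehd2 -0.52 and Pacsin2 -0.59. Library totals alone gave 1 cavin, 1 EHD, pacsin or dynamin relative and 3 clathrin genes called in KD, in place of 3, 2 and 8. Leaving out 1 library, the called relatives in KD numbered 1 to 4 (1 when WT replicate 1 or either of KD replicates 1 and 2 was omitted, 4 when WT replicate 3 was) and the clathrin genes 5 to 9 (5 without WT replicate 1). By the longest transcript, TPM was 105 (KD) and 48.98 (OE) for Cav1, 21.5 (OE) for Cav2, 71.2 and 46.9 for Ehd2, 180.1 and 119 for Pacsin2, and 20.1 (WT), 16.8 and 19.4 for Pacsin3, which then lay near Cav2; the lengths differ by construction. Same-numbered replicates had deviations that correlated at -0.042 to 0.049, and differently numbered ones at -0.061 to 0.042. With 3 libraries a group these values show no strong shared deviation. They cannot tell whether libraries of the same number were prepared together. With a replicate block the members called were 3 in KD, 3 in OE and 5 between OE and KD, as without it, and Cav1 changed by 0.48 and -0.50. Genes of a few counts, Cav3 and Cavin4 among them, were not measurable at this depth.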
